A study of Arabidopsis thaliana with 12 samples.

Results

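The flavonoid and anthocyanin genes described here are 10 loci, chosen by name, of the 38288 genes in a deposited table of read counts from Arabidopsis thaliana leaves. They were found by locus identifier: CHS (AT5G13930, listed as TT4), TT5 (AT3G55120), F3H (AT3G51240), TT7 (AT5G07990), FLS1 (AT5G08640), DFR (AT5G42800), LDOX (AT4G22880), UF3GT (AT5G54060), MYB75 (AT1G56650, listed as PAP1) and TT8 (AT4G09820). Leaves were taken at 14 d and at 26 d of age, untreated, from the wild type Col and from chlorella-1 mutants, with 3 libraries in each of the 4 groups and 12 in all. The study set out to compare the transcripts of mutant and wild-type leaves at each age. The labels call chlorella-1 a knockout of CHLORELLA, a noncoding RNA gene. They do not say what the allele is, how many plants went into a library or whether libraries came from separate plants, so p-values measure the spread between these libraries, which may be partly technical. No table row carries the name CHLORELLA, so loss of its transcript was not checked and the genotypes are as labelled.

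Flavonoids are made from phenylalanine by way of the phenylpropanoid pathway. Chalcone synthase (CHS), chalcone isomerase (TT5), flavanone hydroxylase (F3H) and the cytochrome P450 that hydroxylates the B ring (TT7) form the early steps shared by all branches. At the dihydroflavonols the pathway divides: flavonol synthase (FLS1) makes the colourless ultraviolet-screening flavonols, while dihydroflavonol reductase (DFR), leucoanthocyanidin dioxygenase (LDOX) and glycosyltransferases such as UF3GT lead to the purple anthocyanins stored in the vacuole. In Arabidopsis leaves the late genes are switched on by a complex of an R2R3-MYB protein such as MYB75, a bHLH protein such as TT8 and the WD40 protein TTG1, and anthocyanins are known to build up under strong light, sugar excess, nutrient shortage and senescence. The flavonol and early genes are known to answer to other MYB proteins and to the light regulator HY5.

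Libraries held 45120547 to 70452171 counts, of which nuclear genes, these 10 included, took 26.9% to 49.4%. Levels are given as CPM, counts scaled to the TMM-adjusted library size, and 3 counts, the limit that a count of 0 allows, correspond to 0.0413 to 0.0686 CPM in a library. Levels were low: the highest of the 120 values was 37.7 CPM. In both groups at 26 d, replicate 1 stood apart for these genes, although the labels give no batch. Replicate 1 was the highest of its group for 7 of the 10 genes in Col and for 7 of the 10 in chlorella-1. In Col, 5 of the 9 genes that passed the count filter lay more than 1 log2 unit above the mean of the other libraries in replicate 1, against 4.35% of all genes tested. In chlorella-1, 7 of the 9 did so, against 11% of all genes. By the same measure other old libraries lay low, but the mean of the others then includes the high replicate 1. The counts that follow thus do not show that these libraries stood apart in their own right. Replicate 3 of Col at 26 d lay more than 1 log2 unit below the mean of the others for 5 of the 9, against 5.34% of all genes. Replicate 2 of chlorella-1 at 26 d did so for 4 of the 9, against 18.9%. Results that rest on replicate 1 of the 26 d groups are given with and without it.

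The upstream regions of CHS, FLS1 and DFR are shown because these genes stand for the shared entry, the flavonol branch and the anthocyanin branch, and moved differently in what follows. Each is the 300 bases before the annotated gene start in TAIR10.1 from RefSeq, written 5′ to 3′ on the strand of the gene. They span chr5:4488176-4488475 (+ strand) for CHS, chr5:2803533-2803832 (+ strand) for FLS1 and chr5:17166033-17166332 (- strand) for DFR. Capitals mark ACGT, the core of the G-box CACGTG that bZIP and bHLH proteins bind, the G-box itself, and ACCTA, the core of AC-type MYB elements, each in either direction.
CHS: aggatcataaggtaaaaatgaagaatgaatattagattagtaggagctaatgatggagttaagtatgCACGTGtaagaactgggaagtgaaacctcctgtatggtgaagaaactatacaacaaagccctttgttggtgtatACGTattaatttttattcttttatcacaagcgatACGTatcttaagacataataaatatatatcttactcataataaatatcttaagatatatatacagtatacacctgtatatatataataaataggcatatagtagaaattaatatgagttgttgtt
FLS1: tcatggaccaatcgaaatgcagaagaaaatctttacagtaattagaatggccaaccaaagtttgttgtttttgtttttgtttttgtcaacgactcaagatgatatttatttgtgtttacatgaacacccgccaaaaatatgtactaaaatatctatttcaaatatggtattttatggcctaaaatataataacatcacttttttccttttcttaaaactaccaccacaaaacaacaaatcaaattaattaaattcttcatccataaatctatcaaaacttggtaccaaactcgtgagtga
DFR: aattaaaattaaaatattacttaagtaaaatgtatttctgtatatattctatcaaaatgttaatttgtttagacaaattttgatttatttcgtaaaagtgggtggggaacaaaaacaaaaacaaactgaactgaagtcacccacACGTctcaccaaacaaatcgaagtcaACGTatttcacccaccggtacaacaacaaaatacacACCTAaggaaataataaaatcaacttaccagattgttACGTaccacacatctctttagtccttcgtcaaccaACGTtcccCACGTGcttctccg

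The CHS window held 1 G-box and 3 ACGT cores, that of DFR 1 G-box, 5 ACGT cores and 1 ACCTA, and that of FLS1 none of them. An ACGT inside a G-box is counted in both. Of the 10 genes, 4 (CHS, F3H, DFR and UF3GT) had a G-box, against 7.09% of 27436 upstream windows of nuclear protein-coding genes. An ACGT was present in 6 of the 10 genes and in 49.0% of all windows, an ACCTA in 3 of 10 and in 30.6%, and the E-box CANNTG, which every G-box also matches, in 7 of 10 and in 61.9%. The longer MYB element ACCTACC was found in 0 of the 10 and in 1.33% of all windows. These are matches of letters, not sites shown to be bound. MYB75 and FLS1 held none of the motifs searched, and the upstream window of F3H overlaps AT3G51238, an antisense noncoding gene that lies over 1588 bases of F3H and had 0 to 0.0690 CPM.

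**Figure D1:**
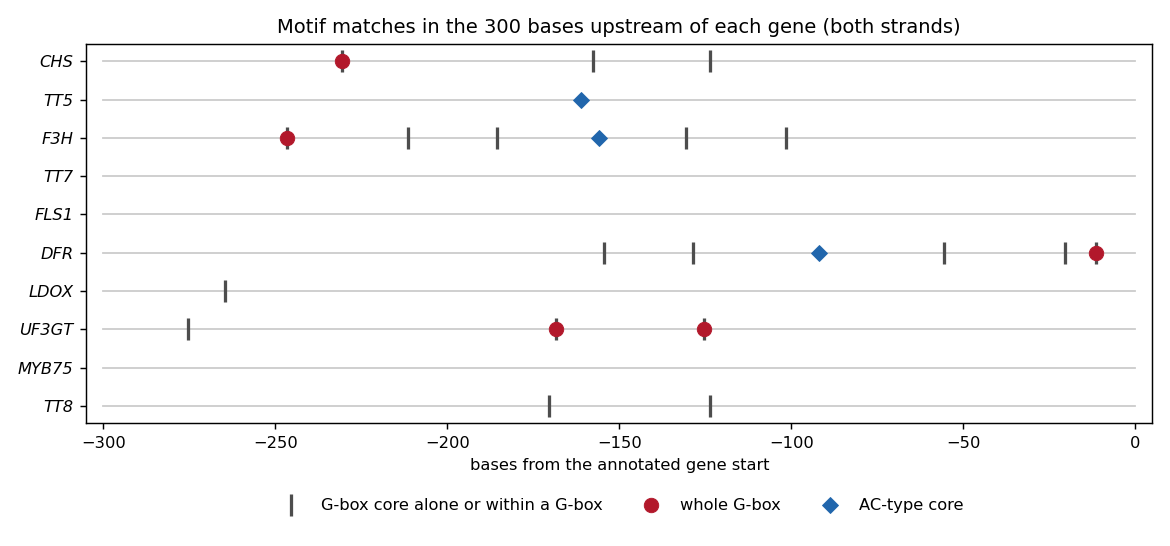
Positions of motif matches in the 300 bases before the annotated start of each of the 10 genes, with the gene start at 0 on the x axis in bases; circles are whole G-boxes, bars are G-box cores and diamonds are AC-type cores, on both strands. DFR and F3H each hold 5 G-box cores and 1 AC-type core, whereas TT7, FLS1 and MYB75 hold neither kind.

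Among the early steps, CHS had the highest level in young wild-type leaves and varied most in old ones. CHS stood at 8.56, 8.74 and 6.48 CPM in replicates 1, 2 and 3 of Col at 14 d, and at 1.21, 3.0 and 3.35 CPM in chlorella-1 at 14 d. At 26 d it stood at 7.23, 0.102 and 0.0492 CPM in Col and at 5.94, 0.801 and 0.776 CPM in chlorella-1. The 14 d groups did not overlap, while at 26 d replicate 1 of either genotype kept a level near that of young Col and the other libraries were lower.

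TT5, the isomerase after CHS, was even within each group. It stood at 1.69, 2.02 and 1.24 CPM in Col and at 1.82, 1.64 and 2.04 CPM in chlorella-1 at 14 d. At 26 d the values were 1.74, 1.0 and 1.89 CPM in Col against 3.55, 3.13 and 3.60 CPM in chlorella-1, so the old mutant leaves were above the other 9 libraries.

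F3H, which makes the dihydroflavonols, stood at 1.97, 2.34 and 1.78 CPM in Col and at 1.69, 2.62 and 2.34 CPM in chlorella-1 at 14 d. At 26 d it stood at 1.90, 1.82 and 1.18 CPM in Col and at 3.28, 0.663 and 0.379 CPM in chlorella-1. The old mutant group thus held both the highest and the lowest F3H values of the 12 libraries. TT7 ranged from 0.504 to 1.06 CPM at 14 d, from 0.181 to 0.698 CPM in Col at 26 d and from 0.414 to 0.982 CPM in chlorella-1 at 26 d, with overlap in every comparison.

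FLS1, the flavonol synthase, was a gene of young leaves in these libraries. It stood at 0.881, 0.963 and 0.436 CPM in Col and at 0.410, 0.482 and 0.645 CPM in chlorella-1 at 14 d. At 26 d it stood at 0, 0.102 and 0.0657 CPM in Col, from 10 counts in all, and at 0.196, 0.389 and 0.0345 CPM in chlorella-1. Both old groups lay below both young groups.

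DFR, the entry to the anthocyanin branch, had its highest mean in old mutant leaves. It stood at 0.0413, 0.119 and 0.105 CPM in Col and at 0.285, 0.161 and 0.276 CPM in chlorella-1 at 14 d. Old Col libraries held 5.32, 0.0851 and 0.0821 CPM, and those of old chlorella-1 held 11.7, 5.08 and 6.26 CPM. All 3 old mutant libraries were above every young library. In old Col replicate 1 alone was, and replicates 2 and 3 lay among the young Col values and below young chlorella-1.

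LDOX, which makes the anthocyanidins, stood at 2.69, 0.153 and 0.115 CPM in Col and at 2.92, 0 and 0.586 CPM in chlorella-1 at 26 d, against 0 to 0.995 CPM at 14 d. UF3GT, which attaches xylose to the anthocyanin's glucose, stood at 1.79, 0.119 and 0 CPM in Col and at 2.04, 0.252 and 0.948 CPM in chlorella-1 at 26 d, against 0 to 0.0963 CPM at 14 d. For both genes, replicate 1 was the highest library of its group at 26 d and the groups of the 2 genotypes overlapped.

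MYB75, the MYB activator of the late genes, stood at 0.523, 0.430 and 0.889 CPM in Col and at 0.482, 0.931 and 1.12 CPM in chlorella-1 at 14 d. At 26 d it stood at 7.40, 3.37 and 3.17 CPM in Col and at 19.6, 0.206 and 37.7 CPM in chlorella-1. All old Col libraries were above all young libraries, and in the old mutant 2 libraries were higher still while replicate 2, with 9 counts, was the lowest of the 12. TT8, its bHLH partner, had 0 counts in all 6 libraries at 14 d, which allows 0.0152 CPM over the Col group and 0.0174 CPM over the chlorella-1 group. At 26 d its 22 counts in Col and 13 counts in chlorella-1 lay in replicate 1 alone. TT8 failed the count filter, so 9 of the 10 genes were tested.

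**Figure D2:**
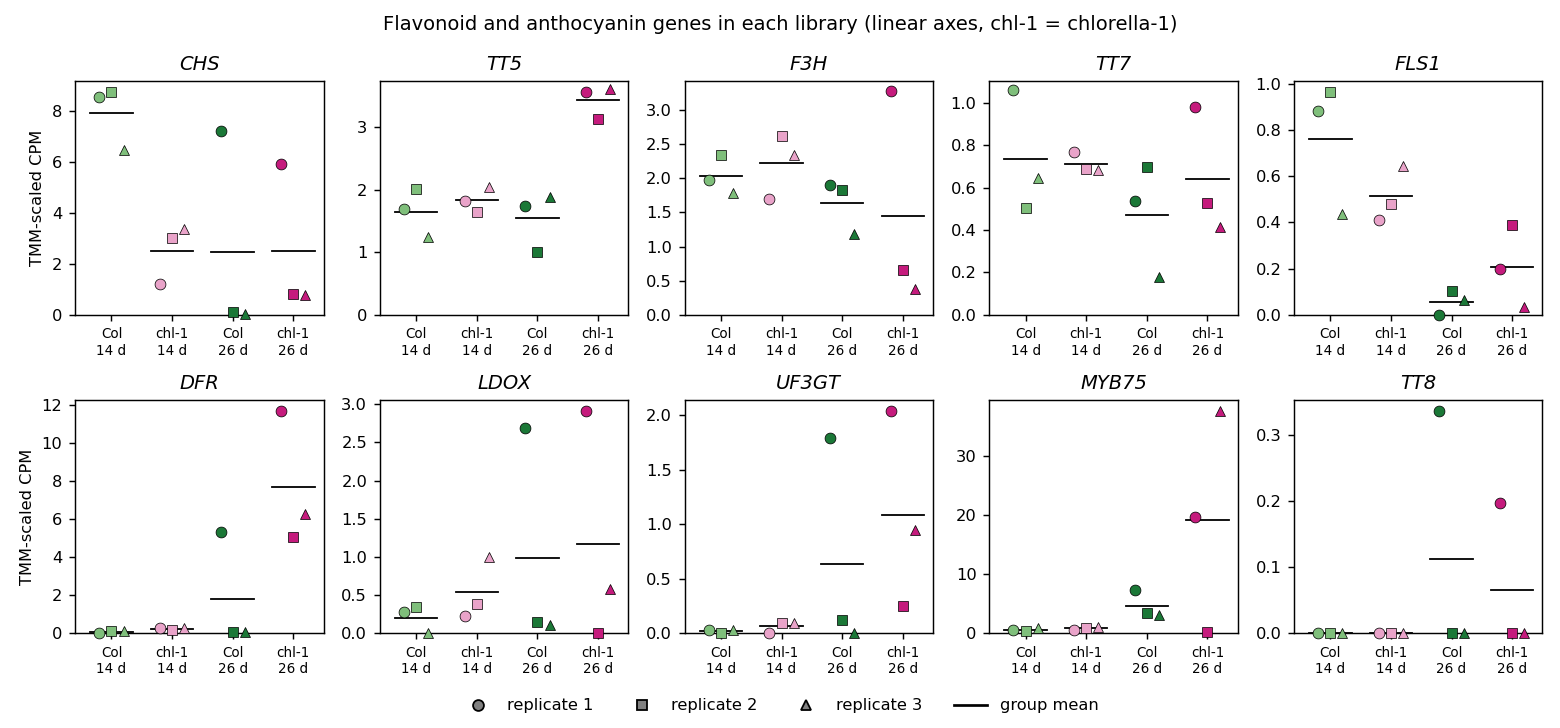
Level of each of the 10 genes in each of the 12 libraries, as TMM-scaled CPM on linear axes that differ between panels; symbols mark replicates and the line is the group mean of 3 libraries. Replicate 1 of both 26 d groups is the high point for CHS, DFR, LDOX, UF3GT and TT8, whereas TT5 is even within groups and highest in chlorella-1 at 26 d.

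Per length of annotated exon, the order of the steps differed with age. In Col at 14 d, CHS stood at 4.66 ± 0.738 CPM per kb (SD, n = 3), above TT5 at 1.48 ± 0.352 and F3H at 1.35 ± 0.190, which did not differ beyond their spread. MYB75, FLS1 and TT7 followed at 0.553, 0.470 and 0.382 CPM per kb without gaps beyond their spread, and then LDOX, DFR, UF3GT and TT8. In chlorella-1 at 14 d, TT5, CHS and F3H stood together at 1.65, 1.48 and 1.47 CPM per kb, and the order of the late genes was the same. At 26 d, MYB75 was the highest of the 10, at 4.19 ± 2.15 CPM per kb in Col and 17.3 ± 16.9 in chlorella-1. In old chlorella-1 it was followed by DFR at 5.06 ± 2.33 and TT5 at 3.08 ± 0.231 CPM per kb, neighbours that did not differ beyond their spread. FLS1 and TT8 were the lowest 2 in both old groups.

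At 14 d, none of the 9 tested genes passed in chlorella-1 against Col in the fit to all 12 libraries, which called 0.162% of all genes. That fit was the quasi-likelihood test of edgeR, adjusted by the Benjamini-Hochberg method over 20398 genes, and the smallest unadjusted p of the 9 was 0.209. CHS had a log2 fold change of -1.65 ± 1.24 (SE) with adjusted p = 0.807, although its 14 d groups did not overlap. CHS and DFR were the 2 of the 9 without overlap, against 30.9% of all genes. In a fit of the 14 d libraries alone, which does not take in the wide spread of CHS at 26 d, CHS fell in chlorella-1 with the same log2 fold change of -1.65, SE 0.252 and adjusted p = 0.00139. CHS was the 1 gene called of the 7 that passed the filter there, against 14.6% of all genes, and the call held when any 1 of the 6 libraries was left out. DFR had a log2 fold change of 1.44 ± 1.57 with adjusted p = 0.915. DESeq2, which called 2.09% of all genes, called none of the 9 and gave no adjusted p for CHS and DFR, which stay without one. In bulk leaves, fewer cells of a type and less RNA per cell cannot be told apart.

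At 26 d, TT5 rose in chlorella-1 against Col, by 1.15 ± 0.259 on the log2 scale (adjusted p = 0.00240). It was the 1 gene called of the 9, against 63.3% of all genes (31.5% higher and 31.8% lower), so fewer of these genes passed than of genes at large. TT5 was called in all 28 alternative fits, with adjusted p from 6.42e-06 to 0.0435, and was the 1 gene of the 9 whose groups did not overlap, against 65.5% of all genes. The median log2 fold change of the 9 was 0.77, against -0.11 over all genes tested.

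The other genes at 26 d turned on single libraries. DFR had a log2 fold change of 2.06 ± 1.06 (adjusted p = 0.107), and without replicate 1 of Col it rose by 6.47 ± 0.558 (adjusted p = 1.04e-05). CHS had 0.04 ± 1.23 (adjusted p = 0.984), and 5.01 ± 1.14 (adjusted p = 0.00368) without the same library. UF3GT had 0.77 ± 1.20 (adjusted p = 0.592), and 4.14 ± 1.31 (adjusted p = 0.0196) without it. Replicate 1 of old Col thus carried nearly all the CHS, DFR and UF3GT reads of its group.

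For 3 more genes at 26 d, the call depended on other libraries. MYB75 had a log2 fold change of 2.04 ± 0.990 (adjusted p = 0.0901), and 2.62 ± 0.417 (adjusted p = 0.000282) without replicate 2 of chlorella-1. F3H had -0.16 ± 0.593 (adjusted p = 0.824), and -1.62 ± 0.354 (adjusted p = 0.00253) without replicate 1 of chlorella-1. FLS1 had 1.83 ± 0.906 (adjusted p = 0.0957), and 2.42 ± 0.811 (adjusted p = 0.0229) without replicate 3 of chlorella-1. TT7 and LDOX passed in none of these fits. For uncalled genes, here and in the comparisons below, the omissions shown were picked because they brought adjusted p under 0.05. Their p-values are thus selected and do not establish a change. Leaving out a library turned the sign of CHS, F3H, TT7, LDOX and UF3GT at 26 d.

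With replicate 1 of both 26 d groups left out, 3 of the 9 genes were higher in old chlorella-1 (CHS, TT5 and DFR) and F3H was lower, against 59.5% of all genes called (29.7% higher and 29.9% lower). This fit was chosen after seeing the data, so its p-values are not independent support for these changes. CHS then rose by 3.36 ± 0.627 (adjusted p = 0.00156). It stood at 0.102 and 0.0492 CPM in Col, from 6 and 3 counts. In chlorella-1 it stood at 0.801 and 0.776 CPM, and all these levels were below those of young leaves. DFR rose by 6.06 ± 0.467 (adjusted p = 1.68e-05), with 5 counts in each old Col library kept. F3H fell by 1.52 on the log2 scale (SE 0.385, adjusted p = 0.00763).

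With age in Col, FLS1 fell by 3.75 on the log2 scale (SE 0.865, adjusted p = 0.00531), and this call held in all 28 alternative fits. The fit also called DFR higher, with a log2 fold change of 4.38 ± 1.39 (adjusted p = 0.0263), and UF3GT, with 4.84 ± 1.70 (adjusted p = 0.0408). Of the 9 genes, 2 were thus called higher and 1 lower, against 39.4% of all genes called (19.3% higher and 20.2% lower). Both higher calls came from replicate 1 of Col at 26 d: without it, the log2 fold change was -0.005 for DFR (adjusted p = 1.0) and 1.49 for UF3GT (adjusted p = 0.526). They also failed without any 1 of the Col libraries at 14 d, with adjusted p from 0.0724 to 0.0937 for DFR and from 0.0921 to 0.127 for UF3GT. UF3GT failed as well without replicate 2 or 3 of chlorella-1 at 14 d, with adjusted p = 0.0558 and 0.0562. It also passed the count filter through old libraries alone, so a rise with age is partly built in.

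MYB75 was higher in all 3 old Col libraries than in any young one and had a log2 fold change of 2.93 ± 1.1 with adjusted p = 0.0523. Fitted on the Col libraries alone, MYB75 had a log2 fold change of 2.98 ± 0.415 (adjusted p = 0.000670). That fit called 10250 of 18964 genes, and of the 7 genes described here that it tested, 1 higher and 1 lower. It is cited for MYB75 after the fit to all libraries missed the threshold, so this p-value is selected. FLS1 and MYB75 were the 2 of the 9 genes whose ages did not overlap in Col, against 61.8% of all genes. CHS had a log2 fold change of -1.68 ± 1.24 (adjusted p = 0.306), and fell by 6.63 (SE 1.16, adjusted p = 0.00210) without replicate 1 of Col at 26 d.

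With age in chlorella-1, DFR, MYB75, UF3GT and TT5 rose, 4 of the 9 genes against 71.2% of all genes called (35.2% higher and 36% lower), and none of the 9 fell. UF3GT had 4 counts in young Col and 11 in young chlorella-1, and passed the count filter through old libraries alone. Its rise is thus partly built in by the filter. DFR rose by 5.0 ± 1.28 (adjusted p = 0.00412), a call that held in all 27 alternative fits that gave it a p. TT5 rose by 0.90 ± 0.257 (adjusted p = 0.00772) and held in all 28. MYB75 rose by 4.50 ± 1.13 (adjusted p = 0.00375), though replicate 2 at 26 d lay below the young libraries. It held when any 1 library was left out, with 5.07 and adjusted p = 3.13e-06 without that replicate 2.

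UF3GT rose with age in chlorella-1 by 4.06 ± 1.49 (adjusted p = 0.0281). The UF3GT call was lost without any 1 of the young chlorella-1 libraries, with adjusted p from 0.0615 to 0.0853, or without replicate 1 at 26 d, with 0.0894. DFR, TT5, UF3GT and FLS1 were the 4 genes whose ages did not overlap in the mutant, against 74.8% of all genes. FLS1 had a log2 fold change of -1.34 ± 0.763 (adjusted p = 0.134), and fell by 2.1 (SE 0.811, adjusted p = 0.0372) without replicate 2 at 26 d. F3H had -0.60 ± 0.591 (adjusted p = 0.376), and fell by 2.07 (SE 0.356, adjusted p = 0.000413) without replicate 1 at 26 d. With replicate 1 of both 26 d groups left out, 4 genes were higher (TT5, DFR, UF3GT and MYB75) and 2 lower (CHS and F3H), against 70.7% of all genes called (34.9% higher and 35.8% lower).

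The difference between the genotypes in their age change passed for TT5, which rose by 1.0 more on the log2 scale in chlorella-1 than in Col (SE 0.365, adjusted p = 0.0453). That was 1 of the 9 genes, against 42.2% of all genes, of which 21.2% were called higher. The call was close to its threshold and failed without any 1 of 8 of the 12 libraries, with adjusted p up to 0.121. For DFR the difference was 0.62 ± 2.0 (adjusted p = 0.844), and 5.03 ± 0.780 (adjusted p = 0.000851) without replicate 1 of Col at 26 d. For CHS it was 1.69 ± 1.74 (adjusted p = 0.461), and 6.67 ± 1.33 (adjusted p = 0.00333) without the same library. For F3H it was -0.29 ± 0.832 (adjusted p = 0.820), and -1.75 ± 0.447 (adjusted p = 0.00990) without replicate 1 of chlorella-1 at 26 d. FLS1 reached 2.98 ± 1.0 (adjusted p = 0.0317) without replicate 3 and MYB75 2.14 ± 0.648 (adjusted p = 0.0206) without replicate 2 of that group, against adjusted p = 0.111 and 0.421 with all libraries.

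**Figure D3:**
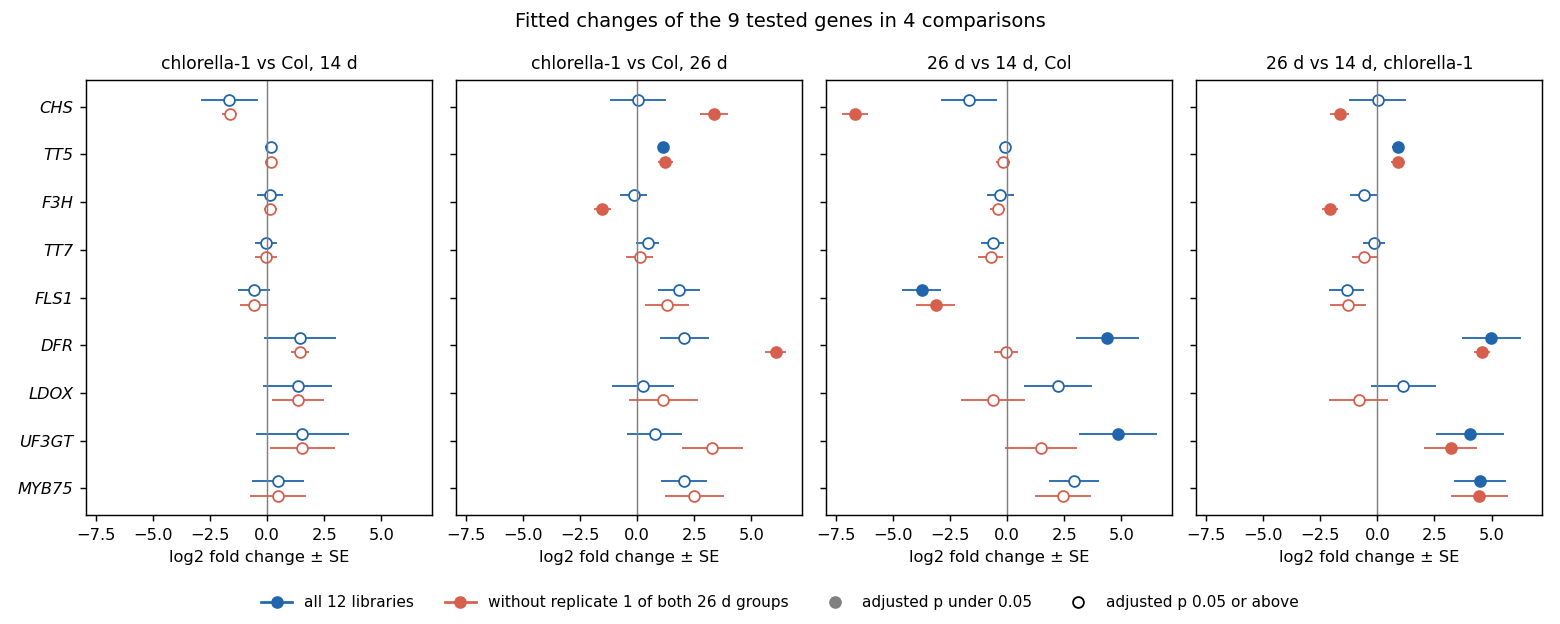
Fitted log2 fold change of each of the 9 tested genes in 4 comparisons, with bars of 1 SE, in the fit to all 12 libraries and in the fit without replicate 1 of both 26 d groups; filled points passed at adjusted p under 0.05. TT5 at 26 d and FLS1 with age in Col pass in both fits, whereas DFR moves from 2.06 to 6.06 at 26 d and from 4.38 to -0.04 with age in Col.

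Among the genes that feed the pathway, PAL2 and PAL3 were lower and PAL4 higher in old chlorella-1 than in old Col. In the phenylpropanoid entry list of 9 genes, all tested, 6 fell and 1 rose with age in Col, 6 fell and 2 rose in chlorella-1, and at 26 d 5 were lower and 3 higher in chlorella-1 than in Col. Over all genes tested, 20.2% fell and 19.3% rose with age in Col, 36% fell and 35.2% rose in chlorella-1, and at 26 d 31.8% were lower and 31.5% higher, shares against which each list below is also to be read. The median log2 fold change of the entry list at 26 d was -0.94, against -0.11 over all genes. PAL2, a main phenylalanine ammonia-lyase, stood at 10.9, 23.0 and 11.4 CPM in old Col and at 4.56, 3.13 and 3.28 CPM in old chlorella-1, and fell between them by 2.04 (SE 0.27, adjusted p = 6.40e-05). PAL3 fell by 3.03 (SE 0.34, adjusted p = 1.82e-05). PAL4, another ammonia-lyase, went the other way: it stood at 0.183, 0.341 and 0.410 CPM in old Col and at 4.84, 3.43 and 2.60 CPM in old chlorella-1, a rise of 3.54 ± 0.32 (adjusted p = 3.84e-06). 4CL5, a ligase that makes the CoA esters, rose at 26 d by 1.31 ± 0.22 (adjusted p = 0.000390). 4CL3, the ligase tied to flavonoid synthesis, stood at 0.261, 0.445 and 0.314 CPM in young Col and at 0 counts in old Col, at least 21.0-fold lower. Without replicate 1 of both 26 d groups, 3 of the 9 entry genes fell with age in Col in place of 6.

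The flavonol branch list held 8 tested genes of 12, of which 2 rose and 2 fell with age in Col, 3 rose and 3 fell in chlorella-1, and at 26 d 1 was higher and 2 lower in chlorella-1. Its median log2 fold change at 26 d was -0.26. UGT78D1, the rhamnosyltransferase of flavonols, stood at 5.26, 4.07 and 4.99 CPM in old Col and at 2.12, 1.56 and 3.45 CPM in old chlorella-1, and fell by 1.0 (SE 0.26, adjusted p = 0.00599). UGT89C1, another flavonol rhamnosyltransferase, fell by 1.05 (SE 0.36, adjusted p = 0.0233), with adjusted p = 0.107 without replicate 1 of old Col and 0.0854 without replicate 3 of old chlorella-1. CHIL, the chalcone isomerase-like helper of CHS, fell with age by 2.49 in Col (SE 0.79, adjusted p = 0.0258) and by 2.57 in chlorella-1 (SE 0.80, adjusted p = 0.0126), alongside FLS1 in Col. The CHIL call in Col was lost without replicate 1 or 2 at 14 d or any 1 replicate at 26 d, with adjusted p from 0.0521 to 0.0949. FLS5, a homolog of FLS1, had 0 counts in both young groups and was at least 15.2-fold higher in old Col and at least 30.8-fold higher in old chlorella-1. DTX35, a transporter of flavonoids, rose at 26 d by 0.62 ± 0.19 (adjusted p = 0.0142), with adjusted p = 0.0581 and 0.0508 without replicate 1 or 3 of old Col.

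Some of the genes that decorate and move anthocyanins also rose with age in chlorella-1. In that list of 9 genes, 7 were tested: 4 rose and 0 fell with age in chlorella-1, 2 rose and 1 fell in Col, and at 26 d 2 were higher in chlorella-1, with a median log2 fold change of 1.0. With age in chlorella-1, 35.2% of all genes rose and 36% fell. Without replicate 1 of both 26 d groups, 4 of the 7 rose and 2 fell with age in chlorella-1, 2 rose and 1 fell in Col, and 3 were higher at 26 d. TT19, the glutathione transferase that carries anthocyanins to the vacuole, stood at 4.83, 0.0681 and 0 CPM in old Col and at 7.74, 0.480 and 3.67 CPM in old chlorella-1, where it rose with age by 5.37 ± 1.85 (adjusted p = 0.0209). The TT19 call was lost without replicate 1 or 2 of young chlorella-1 or replicate 1 of old chlorella-1, with adjusted p = 0.0688, 0.0713 and 0.0585. 3AT1, an anthocyanin coumaroyltransferase, had 0 counts in young chlorella-1 and 1.39, 0.435 and 0.741 CPM in old chlorella-1, at least 49.2-fold higher. Replicate 1 was the highest library of old Col for 9 of the 9 genes of the list and of old chlorella-1 for 7 of the 9. BGLU10, a glucosyltransferase that acts on anthocyanins in the vacuole, was higher at 26 d in all 3 old mutant libraries: it stood at 45.9, 40.4 and 34.6 CPM in Col and at 97.0, 149 and 112 CPM in chlorella-1, a rise of 1.57 ± 0.18 (adjusted p = 2.56e-05). ABCC2, a vacuolar ABC transporter, rose by 0.71 ± 0.21 (adjusted p = 0.0107). SAT, the sinapoyltransferase of anthocyanins, fell with age in Col by 2.90 (SE 0.50, adjusted p = 0.000979).

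Of 13 activating regulators besides MYB75 and TT8, 6 passed the filter, and the flavonol activators MYB11, MYB12 and MYB111 had 0 to 0.105 CPM in every library. At 26 d, 2 of the 6 were higher and 3 lower in chlorella-1, with a median log2 fold change of -0.25. HY5, the bZIP protein of light responses that binds G-boxes, stood at 2.91, 2.43 and 1.92 CPM in old Col and at 19.1, 34.2 and 16.1 CPM in old chlorella-1, a rise of 3.25 ± 0.32 (adjusted p = 7.44e-06). MYB90, a close paralog of MYB75, had 0 counts at 14 d in both genotypes, 0.535, 0.136 and 0.378 CPM in old Col and 1.03, 2.72 and 1.26 CPM in old chlorella-1. MYB90 was at least 23.0-fold higher with age in Col and at least 96.1-fold higher in chlorella-1, and rose between the old groups by 2.24 ± 0.62 (adjusted p = 0.0144). Replicate 2 of old chlorella-1, the lowest library for MYB75, was thus the highest for MYB90. How the counting treated reads that fit both paralogs is not given in the sources used here. TTG1, the WD40 partner, fell at 26 d by 1.33 (SE 0.26, adjusted p = 0.000963), the B-box protein BBX22 by 1.12 (SE 0.26, adjusted p = 0.00302) and the HY5 homolog HYH by 1.43 (SE 0.44, adjusted p = 0.0142). The HYH call was lost without replicate 2 of old Col (adjusted p = 0.0875).

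Of 16 repressing regulators, 15 were tested, and at 26 d 3 were higher and 5 lower in chlorella-1. With age, 6 rose and 2 fell in Col, and 5 rose and 7 fell in chlorella-1. The median log2 fold change of the 15 at 26 d was 0.08. Of all genes, 31.5% were higher and 31.8% lower at 26 d, and 35.2% rose and 36% fell with age in chlorella-1. ANAC032, a NAC protein that represses anthocyanin genes, stood at 8.38, 5.19 and 7.52 CPM in old Col and at 38.2, 84.0 and 20.4 CPM in old chlorella-1, a rise of 2.76 ± 0.44 (adjusted p = 0.000224). The Kelch F-box proteins that mark ammonia-lyases or CHS for breakdown diverged. KFB01 rose at 26 d by 2.47 ± 0.23 (adjusted p = 5.29e-06), with 16.8, 14.9 and 13.2 CPM in Col and 71.1, 93.2 and 85.0 CPM in chlorella-1. KFB20 fell by 2.53 (SE 0.50, adjusted p = 0.00102), from 30.2, 26.2 and 33.6 CPM to 5.53, 1.24 and 8.74 CPM, and KFB-CHS fell by 1.30 (SE 0.24, adjusted p = 0.000715). MYB32, a repressor of phenylpropanoid genes, rose by 0.68 ± 0.18 at 26 d (adjusted p = 0.00596). MYBL2 and MYB4, also MYB repressors, were lower in old chlorella-1 without overlap. In either direction, 10 of the 15 repressors and 65.5% of all genes did not overlap at 26 d, so this is not particular to them. MYBL2 stood at 63.4, 68.9 and 87.3 CPM in old Col and at 36.8, 14.4 and 50.4 CPM in old chlorella-1. MYB4 stood at 1.07, 1.92 and 1.59 CPM in old Col and at 0.166, 0.297 and 0.707 CPM in old chlorella-1. COP1, the ubiquitin ligase that targets HY5 and MYB75, fell by 0.76 (SE 0.14, adjusted p = 0.000751).

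In the competing lignin and sinapate branch, all 13 genes were tested. At 26 d, 7 of the 13 were lower and 3 higher in chlorella-1, against 31.8% lower and 31.5% higher of all genes, with a median log2 fold change of -0.57. With age in Col 1 rose and 1 fell. SNG1, the sinapoyl malate synthase, stood at 123, 171 and 159 CPM in old Col and at 48.5, 35.8 and 64.7 CPM in old chlorella-1, and fell by 1.61 (SE 0.21, adjusted p = 5.40e-05). CAD4, a cinnamyl alcohol dehydrogenase, fell by 3.10 (SE 0.42, adjusted p = 7.39e-05). CCR1, the cinnamoyl-CoA reductase, rose by 1.27 ± 0.14 (adjusted p = 2.06e-05), with 42.2, 42.4 and 38.6 CPM against 81.3, 111 and 105 CPM. Of the list genes named, 4CL5, DTX35, UGT89C1, TT19, SAT, 3AT1, MYB11 and CCR1 overlap another annotated gene, as do the markers SHT, PYK10 and GL2, and the strand setting of the counting is not given in the sources used here.

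**Figure D4:**
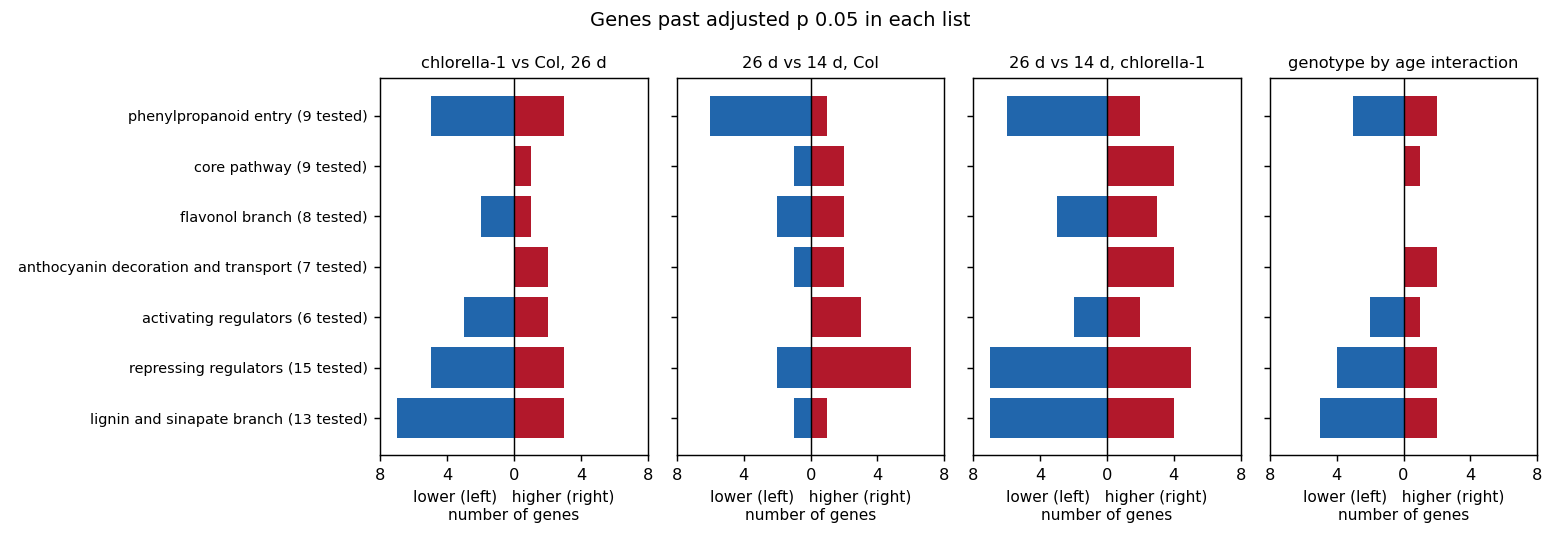
Number of genes past adjusted p 0.05 in each pathway list, lower to the left and higher to the right, in 4 comparisons; the label gives the genes tested. The core pathway has 1 call at 26 d and 4 with age in chlorella-1, all higher. The phenylpropanoid entry and the lignin and sinapate branch have 5 and 7 lower calls at 26 d. Of all genes tested, 31.5% were called higher and 31.8% lower at 26 d. With age in chlorella-1, 35.2% of all genes were called higher and 36% lower.

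**Figure D5:**
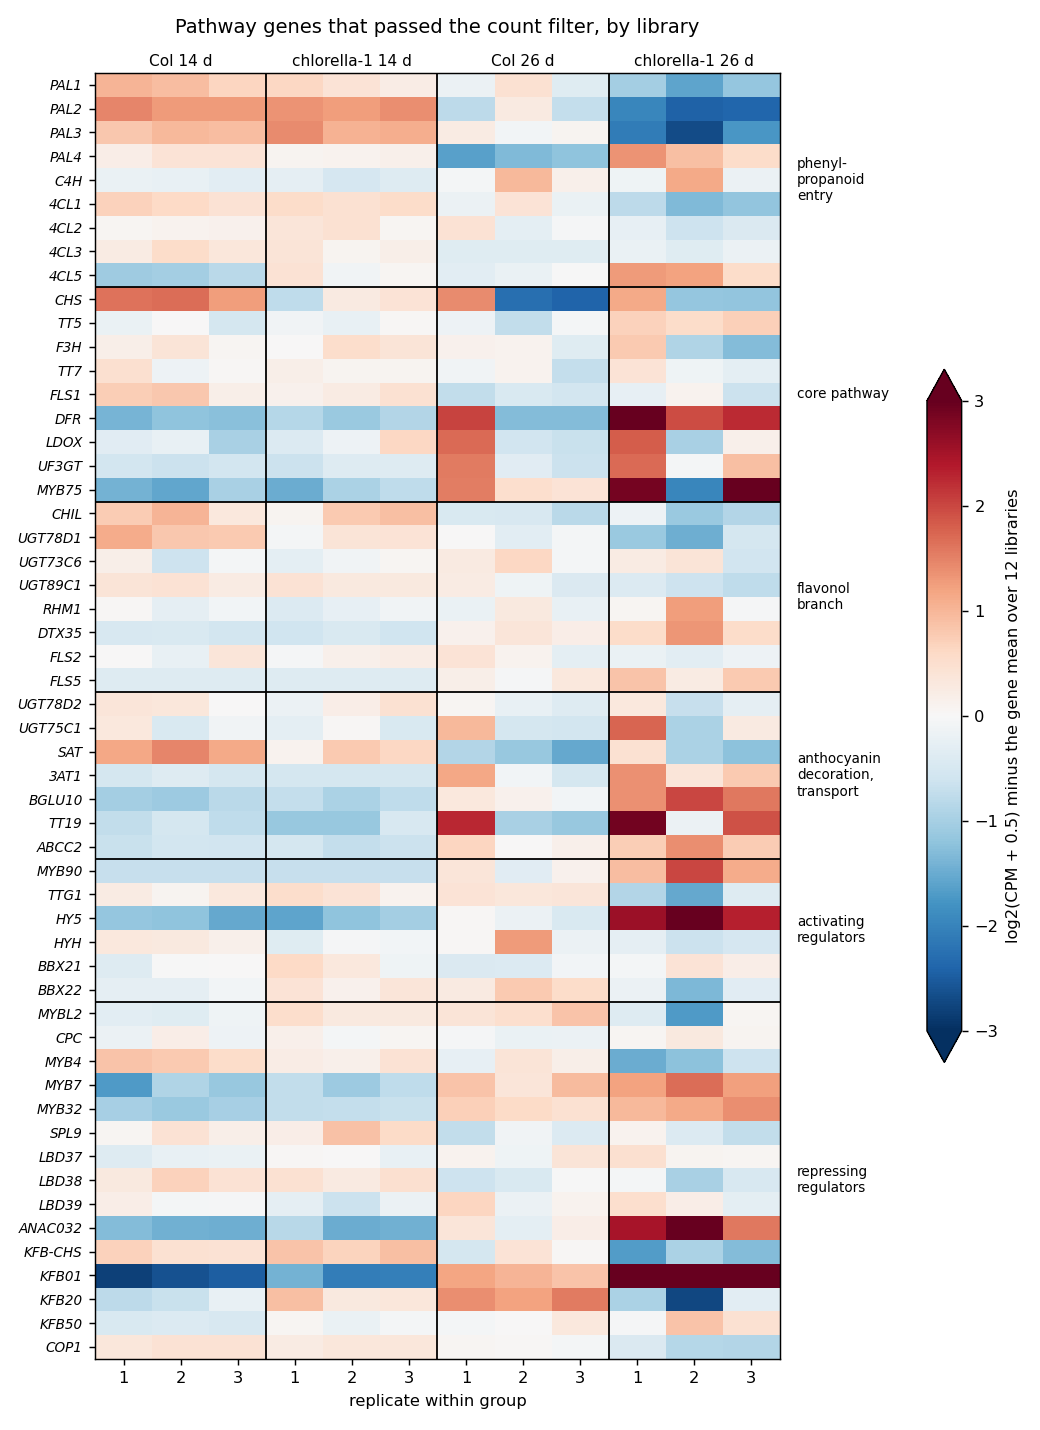
Level of each pathway gene that passed the count filter in each of the 12 libraries, as log2(CPM + 0.5) minus the gene's mean over the libraries. Replicate 1 of both 26 d groups is red for DFR, LDOX, UF3GT and TT19, and HY5, KFB01 and ANAC032 are red in all 3 old mutant libraries.

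Tissue markers also differed between the groups. The 5 leaf mesophyll markers were present in all libraries, with summed levels of 9546 to 12794 CPM at 14 d, 3280 to 5488 CPM in Col at 26 d and 335 to 790 CPM in chlorella-1 at 26 d, and all 5 fell in old chlorella-1 against old Col. The 5 epidermis markers, whose cells hold much of a leaf's flavonoids, summed to 243 to 262 CPM at 14 d, 62.0 to 91.3 CPM in old Col and 16.1 to 43.4 CPM in old chlorella-1. At 26 d 4 of the 5 were lower and GL2, named after its values were seen, was higher in chlorella-1, by 2.21 ± 0.70 (adjusted p = 0.0161), at 0.438, 0.709 and 0.379 CPM against 0.153, 0.17 and 0 CPM in old Col. The 13 flower and pollen markers summed to 1.28 to 1.71 CPM in old Col and 12.9 to 40.8 CPM in old chlorella-1. The pollen gene VGD1 made up 32.5, 7.46 and 31.6 CPM of the old chlorella-1 sums. Of the 13, 3 passed the count filter among the Col libraries alone and 6 among the chlorella-1 libraries alone. Markers that passed only through old chlorella-1 were bound to be high there, so the next counts are no result about these markers. Of the 7 tested, 4 were higher and 1 lower in old chlorella-1, against 31.5% higher and 31.8% lower of all genes. The lower 1 was LAP6 (adjusted p = 0.0256 in edgeR). Its call was lost without replicate 1 of either old group or replicate 3 of old chlorella-1, with adjusted p from 0.0562 to 0.0914. The tapetum genes MS2, ACOS5 and SHT had 0 counts in all 12 libraries, and 3 of the 13 were at 0 in old chlorella-1. Of 7 seed coat markers, 4 were at 0 in old chlorella-1 and 5 in old Col, and AHA10 alone was tested, with 0.48 to 2.01 CPM in old chlorella-1. Of 5 root markers, PYK10 alone was tested, at 1.53, 2.47 and 1.61 CPM in old Col and 6.77, 0.686 and 1.03 CPM in old chlorella-1, where replicate 1 was high as it was for the late anthocyanin genes. The part of any of these cell types in the results above was not tested.

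Within the 9 tested genes, profiles over the 12 libraries were most alike for F3H and TT7, with a root mean square difference of 0.746 log2 units after centring each gene, followed by TT5 and TT7 at 0.862. DFR and UF3GT were the closest pair of the anthocyanin branch at 1.63, and FLS1 and UF3GT the least alike of all pairs at 4.19. Of all other tested genes, those nearest to FLS1 were HB-7 (AT5G46880), AT1G60360 and FKD1, at 0.673, 0.673 and 0.682. Those nearest to DFR were AT1G15772, AT3G61410 and PERK4, at 0.777, 0.889 and 0.928. CHS had no gene closer than AT1G27880 at 1.24, followed by BRCA1 at 1.28 and AT5G40980 at 1.30, and MYB75 had CYP71B9 at 0.982, CYP707A2 at 1.1 and AT5G00680 at 1.11. At levels this low, such differences also hold counting error.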

How the data were processed

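Read counts per gene, whole numbers in every library, were used as the authors deposited them. The submitters' processing notes name STAR, HISAT2, HTSeq, StringTie, DESeq2 and the genome build TAIR10. Which tool did what, in which version and with which strand setting, is not given in the sources used here. Another 12 columns of per-sample values (FPKM) and 50 rows that name no gene, with 0.0771% to 0.216% of a library's counts, were left out. Total counts of 45120547 to 70452171 per library set the precision, and the limit of 3 counts covers counting error only.

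Tests used edgeR 4.0.16 under R 4.3.3. Here filterByExpr kept 20398 genes, TMM scaled the libraries, and 1 quasi-likelihood model with a term per group was fitted to all 12 libraries, two-sided, with Benjamini-Hochberg adjustment over all genes tested and a threshold of 0.05, in 5 comparisons. The script was tested on simulated data. Alternatives were other scalings, filters, DESeq2 1.42.0, limma 3.58.1 voom, the replicate number as a block, fits of only the groups compared, and each library left out in turn. A fit without replicate 1 of both 26 d groups was chosen after seeing the data.

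The 10 genes and 11 further lists were chosen with earlier results of these data known. Of each list, up to 4 called genes with the smallest p per comparison could be named, together with genes at 0 counts in a group. MYBL2, MYB4 and LAP6 were named after their values were seen. For likeness, log2 CPM with a prior count of 0.5 was centred per gene. Loci, exon lengths, neighbours and sequences came from RefSeq's TAIR10.1, whose annotation held all 38288 gene IDs. Figures were drawn with Python 3.11.15 and matplotlib 3.10.9.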

Additional observations from a re-analysis of the deposited data

Results flagged for a closer look

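The age change of TT5, the chalcone isomerase, differed between the genotypes in a direct test of the difference: it was 0.998 higher on the log2 scale in chlorella-1 than in Col (SE 0.365, adjusted p = 0.0453 in edgeR). The call was lost without any 1 of 8 of the 12 libraries, with adjusted p from 0.0507 to 0.121. All 3 old mutant libraries, at 3.13 to 3.6 CPM, were above the other 9 libraries, which reached 2.04 CPM.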

How the results depend on the processing

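The number of genes called, of 9 tested in the fit to all 12 libraries, changed with the setting. Fits of only the groups compared tested 7 at 14 d, 8 at 26 d, 7 with age in Col and 9 in chlorella-1. The fit to all libraries called 0.162% of all genes at 14 d and 63.3% at 26 d. It called 39.4% with age in Col, 71.2% in chlorella-1 and 42.2% for the difference. The fit of only the 14 d groups called 14.6%. In chlorella-1 against Col at 14 d it was 0, and 1 when only the groups compared were fitted, with or without the block; leaving out 1 library, here and below in either fit, gave 0 to 1. At 26 d it was 1, and 2 with DESeq2, limma voom or the block, in either fit, and 4 without replicate 1 of both 26 d groups; leaving out a library gave 1 to 4. With age in Col it was 3, and 1 with the block; leaving out a library gave 1 to 4. With age in chlorella-1 it was 4, and 6 without replicate 1 of both 26 d groups; leaving out a library gave 3 to 6. For the difference in age change it was 1, 0 with the block and 3 without replicate 1 of both 26 d groups; leaving out a library gave 0 to 2.

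Signs turned for changes near 0 or resting on 1 library. In chlorella-1 against Col at 14 d, leaving out a library gave log2 fold changes of -0.018 to 0.32 for TT5, -0.012 to 0.29 for F3H and -0.26 to 0.32 for TT7. TT7 also turned to 0.0038 with limma voom, 0.0043 with the block and 0.0036 with the block in a fit of only those groups. At 26 d the ranges were -1.64 to 5.01 for CHS, -1.65 to 0.33 for F3H, -0.0043 to 0.84 for TT7, -1.70 to 3.10 for LDOX and -0.069 to 4.14 for UF3GT, and LDOX was -0.17 with limma voom. With age in Col they were -0.26 to 0.14 for TT5, -0.0047 to 4.97 for DFR and -0.62 to 2.79 for LDOX, and without replicate 1 of both 26 d groups DFR was -0.038 and LDOX -0.61. With age in chlorella-1 they were -1.65 to 0.48 for CHS, -0.57 to 0.16 for TT7 and -0.81 to 1.93 for LDOX. CHS was -0.45 with limma voom, -1.14 with the block, -0.67 with the block in only those groups and -1.65 without replicate 1 of both 26 d groups, and LDOX was -0.36, -0.049, -0.068 and -0.82. For the difference in age change they were -1.75 to 0.20 for F3H, -3.01 to 1.76 for LDOX and -1.57 to 2.60 for UF3GT, and UF3GT was 1.77 with limma voom and 1.75 without replicate 1 of both 26 d groups. Apart from the fits that leave out libraries, the cause was not tested.

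Libraries of the same number deviated together with correlations of -0.0991 to 0.133, not above 0.1 in every pair, so the numbers were not taken to pair libraries. Over all genes at 14 d, 33 were called, against 426 with DESeq2, 2713 in a fit of the 14 d groups, 11 with the block, 2300 with the block in that fit and 21 without replicate 1 of both 26 d groups; leaving out a library gave 5 to 2349. At 26 d, 12921 were called, and 7083 to 10420 when a library was left out of a fit of the 26 d groups. DESeq2 size factors moved the median log2 fold change of all genes from -0.11 to 0.02 at 26 d. TT5 at 26 d and with age in chlorella-1, FLS1 with age in Col and DFR with age in chlorella-1 kept their calls in every fit that gave them a p. With most levels under 10 CPM and 3 libraries a group, depth and 1 unlike library both limit these comparisons.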

Other observations

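Of the 15 repressing regulators tested, 6 rose and 2 fell with age in Col, where 19.3% of all genes rose and 20.2% fell. In chlorella-1 5 rose and 7 fell, against 35.2% and 36% of all genes. Those described here are some of these. KFB01 rose in both genotypes, by 4.36 ± 0.26 on the log2 scale in Col (adjusted p = 2.68e-06, edgeR) and by 5.65 ± 0.27 in chlorella-1 (adjusted p = 2.60e-08). Its age change was larger in chlorella-1 by 1.30 ± 0.33 (adjusted p = 0.00973). KFB20 rose in Col by 2.0 ± 0.49 (adjusted p = 0.00718) and fell in chlorella-1 by 1.65 (SE 0.49, adjusted p = 0.00936), and the difference of -3.65 ± 0.69 passed (adjusted p = 0.00165). The MYB repressors MYB7 and MYB32 rose in both genotypes, by 2.54 ± 0.34 and 2.23 ± 0.19 in Col and by 2.67 ± 0.33 and 2.37 ± 0.19 in chlorella-1. Other MYB repressors did not follow them. Mean MYB4 went down with age from 2.59 to 1.53 CPM in Col and from 1.75 to 0.390 CPM in chlorella-1. Mean MYBL2 went up from 39.9 to 73.2 CPM in Col and down from 62.7 to 33.9 CPM in chlorella-1. Of the entry genes, PAL4 fell with age in Col by 2.79 (SE 0.31, adjusted p = 6.81e-05) and rose in chlorella-1 by 1.02 ± 0.28 (adjusted p = 0.00581), and the difference of 3.81 ± 0.42 passed (adjusted p = 5.92e-05).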
